A study of Mus musculus with 12 samples.

Results

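The transcripts described here encode the secreted mitokines GDF15 and FGF21. They are the *Gdf15* and *Fgf21* rows, 2 of the 24453 genes in the count table, and were taken by symbol. The 12 RNA-seq libraries came from 4 mouse embryonic fibroblast (MEF) lines, each grown in 3 biological replicates. The parental TM6 MEFs were immortalized with SV40 large T antigen, came from the C57BL6/J strain and carry *Pnpt1* neo-flox/neo-flox alleles, in which loxP sites surround a part of the gene for the mitochondrial RNA-processing enzyme PNPase. The rho0 line, which has no mtDNA, was raised from a single TM6 cell after 3 weeks with ditercalinium at 750 ng/mL. The knockout clones PKO-1 and PKO-6 were each expanded from 1 TM6 cell in which adenoviral Cre had removed the floxed part of *Pnpt1*. The paper reports that these clones also had no detectable mtDNA and did not respire. Medium for every line contained uridine at 50 µg/mL. The rho0 libraries thus represent 1 line and each PKO line is 1 clone, so the replicates measure the spread between cultures and not between independently made lines.

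Mitokines are signals that cells with failing mitochondria send to the rest of the body. GDF15, a distant member of the TGF-beta family, lowers appetite through the receptor GFRAL and its coreceptor RET in the hindbrain, whereas FGF21, an endocrine FGF made mainly by the liver, acts through FGF receptors that are joined by the coreceptor beta-Klotho. Both genes are transcriptional targets of the integrated stress response, in which kinases phosphorylate eIF2-alpha, translation of the transcription factor ATF4 rises, and ATF4 and its partner CHOP (*Ddit3*) activate their targets, and *Gdf15* also answers to p53. Both proteins are measured in blood as markers of mitochondrial disease.

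*Gdf15* lies on the minus strand of chromosome 8 in GRCm38, from 70629394 to 70631635, and the counted model has 1 transcript of 1084 bases in 2 exons, with coding sequence from 70629543 to 70631612. *Fgf21* lies on the minus strand of chromosome 7, from 45613890 to 45615490, with 1 transcript of 947 bases in 3 exons and coding sequence from 45614020 to 45615306. Neither model overlaps another annotated gene. The 250 bases before a RefSeq start of each gene are shown. They come from RefSeq (GRCm38.p6) and are written 5′ to 3′ on the strand of the gene, with motif matches in capitals.

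Fgf21, chr7:45615491-45615740, minus strand: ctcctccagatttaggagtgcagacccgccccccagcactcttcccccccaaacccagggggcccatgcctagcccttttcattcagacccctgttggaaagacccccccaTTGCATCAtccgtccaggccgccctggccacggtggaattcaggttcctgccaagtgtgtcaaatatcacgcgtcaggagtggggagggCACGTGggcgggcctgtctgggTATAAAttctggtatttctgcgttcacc

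Gdf15, chr8:70632457-70632706, minus strand: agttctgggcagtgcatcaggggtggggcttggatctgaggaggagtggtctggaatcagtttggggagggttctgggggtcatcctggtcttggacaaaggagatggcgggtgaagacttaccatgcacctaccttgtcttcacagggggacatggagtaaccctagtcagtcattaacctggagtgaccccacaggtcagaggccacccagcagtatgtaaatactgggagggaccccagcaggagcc

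Motifs were searched on both strands. In the *Fgf21* window a match to the core of the C/EBP-ATF response element, TGATGNAA, was read on the opposite strand as TTGCATCA, 139 to 132 bases before the start. A CACGTG E-box stood 50 to 45 bases before the start and a TATAAA box 28 to 23 bases before it. Of 32851 RefSeq promoter windows of the same length, 3.45% held the response element core, 6.02% the E-box and 12.4% the TATAAA box. The cyclic AMP response element TGACGTCA, in 1.55% of windows, was in neither printed sequence, and none of these motifs was in the printed *Gdf15* sequence. A second *Gdf15* start in RefSeq, at 70632095, has an E-box 83 to 78 bases before it. Both RefSeq starts of *Gdf15* (70632456 and 70632095) lie upstream of the start of the counted model, so reads that fall only in exons upstream of it are not in the counts. The *Fgf21* window ends at the counted start. The 250 bases just before the counted *Gdf15* start were in neither *Gdf15* window, so like regions of *Fgf21* and *Gdf15* were not compared. A match describes the letters, and its absence says nothing of a factor's binding.

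The libraries held 47164860 to 67991378 counts, of which 12.2% to 19.6% fell on the ribosomal precursor *Rn45s*. Counts of *Pnpt1*, normalized to library size as below, were 3131 ± 262 in TM6, 5271 ± 230 in rho0, 1240 ± 44.3 in PKO-1 and 1944 ± 250 in PKO-6 (mean ± SD, n = 3), so both knockout clones were below TM6. All 10 fibroblast markers of a list had counts in TM6, rho0 and PKO-1, and 9 in PKO-6, where *Thy1* was at 0. Their summed normalized counts were 538185 to 586155 in TM6, 451864 to 504828 in rho0, 608572 to 658469 in PKO-1 and 355750 to 396683 in PKO-6. Single markers moved more than the sum: of 9 tested, 7 were called lower and 1 higher in rho0 (median log2 fold change -1.56), 2 lower and 4 higher in PKO-1 (0.29), and 6 lower and 2 higher in PKO-6 (-1.28). Of all tested genes, 21.4% were called lower and 20.7% higher in rho0, 17.9% and 16.4% in PKO-1, and 19.4% and 21.9% in PKO-6. The 2 markers lower in PKO-1 and the 2 higher in PKO-6 are near these shares. *Col3a1*, a fibrillar collagen, stood at -3.32, 0.56 and -3.86 in the same order and *Fn1*, fibronectin, at 1.07, 1.19 and 0.88, both named after their values were seen. Of cell types known to secrete these mitokines, 8 hepatocyte markers summed to 18.2 to 49.9 normalized counts in any library, with *Ttr* and *Cyp3a11* at 0 throughout. For 6 macrophage markers the sums were 367.9 to 398.6 in TM6, 262.5 to 328.3 in rho0, 490.2 to 505.9 in PKO-1 and 506.1 to 616.6 in PKO-6, with *Adgre1* at 0 throughout. That sum was below TM6 in rho0 and above it in both PKO clones. The sums of 6 adipocyte markers (0.969 to 78.3), 7 muscle markers (13.4 to 85.8), 6 epithelial markers (111.4 to 842.4) and 5 endothelial markers (20.3 to 177.2) were likewise small beside the fibroblast sums, and their part in the results was not tested. In bulk RNA, fewer cells that express a gene and less RNA per cell cannot be told apart.

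*Gdf15* RNA was higher in rho0 and in both PKO clones than in TM6. Normalized counts, which are counts divided by the library's TMM-scaled size relative to the mean library, were 67.4, 50.6 and 66.8 in the 3 TM6 libraries. They were 1024, 1024 and 1001 in rho0. In PKO-1 they were 285.7, 307.8 and 263.7, and in PKO-6 they were 664.1, 633.2 and 583.7. No 2 lines overlapped, and the order was rho0 above PKO-6, PKO-6 above PKO-1 and PKO-1 above TM6. The means were 61.6 ± 9.53 in TM6, 1016 ± 13.5 in rho0, 286 ± 22.0 in PKO-1 and 627 ± 40.6 in PKO-6 (mean ± SD, n = 3). In TPM, a level per transcript length, the means were 2.08, 33.7, 9.18 and 20.3 in the same order. Among genes with a TPM above 0, this placed *Gdf15* above 38.3% in TM6, 78.1% in rho0, 51.8% in PKO-1 and 68.2% in PKO-6.

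**Figure D1:**
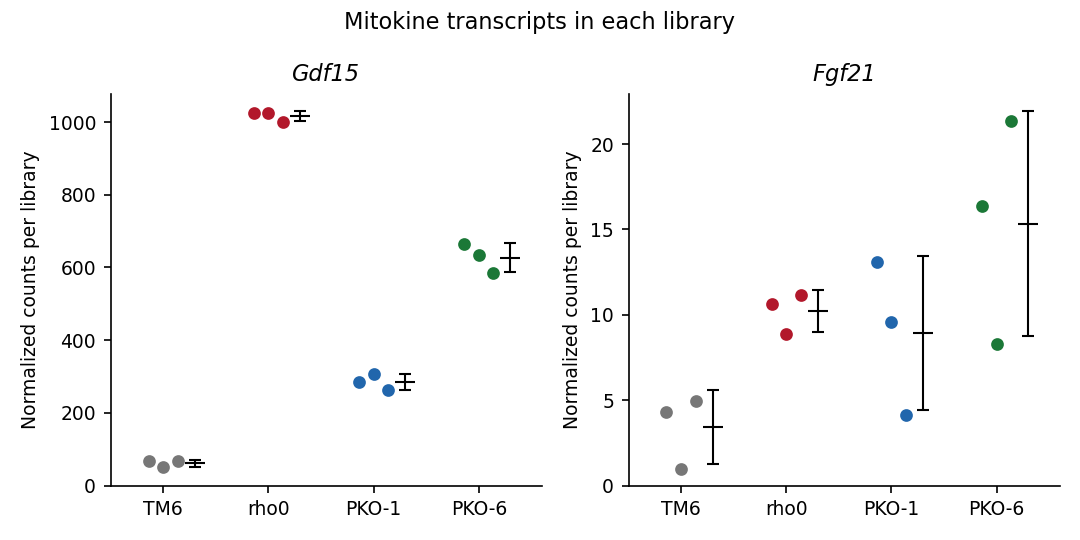
Normalized counts of *Gdf15* (left) and *Fgf21* (right) in each library of the 4 lines. Points are libraries, the horizontal bar is the mean of 3 libraries and the whiskers are ± 1 SD. *Gdf15* forms separate groups between 50.6 in TM6 and 1024 in rho0, whereas the *Fgf21* libraries of PKO-1 reach from 4.14 to 13.1 and overlap those of the other lines.

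The fitted difference of *Gdf15* from TM6 was largest in rho0. A call needs 0.01 as the upper limit of the adjusted p in edgeR's quasi-likelihood test together with a log2 fold change of over 0.5 in size. By this rule *Gdf15* was called in rho0 at a log2 fold change of 4.04 ± 0.113 (SE), which is 16.4-fold with a 95% interval of 13.9 to 19.5 (edgeR, adjusted p = 2.51e-12). In that comparison 42.1% of the 14026 tested genes were called, 20.7% higher and 21.4% lower, and 72.8% did not overlap between the groups. *Gdf15* ranked 122 from the top of all tested genes by log2 fold change. In PKO-6 it was 10.1-fold higher, at 3.34 ± 0.112 (edgeR, adjusted p = 9.34e-12), where 41.3% of genes were called (21.9% higher, 19.4% lower) and 71.9% did not overlap. In PKO-1 it was 4.62-fold higher, at 2.21 ± 0.115 (edgeR, adjusted p = 1.36e-09), where 34.3% were called (16.4% higher, 17.9% lower) and 71.8% did not overlap. Calls are thus frequent in these lines, and it is the size of the *Gdf15* change, with ranks of 341 in PKO-6 and 284 in PKO-1, that places it near the top.

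With both clones pooled, as the study grouped them, *Gdf15* was 7.40-fold higher in PKO than in TM6, at 2.89 ± 0.361 (edgeR, adjusted p = 5.49e-05, 3 libraries against 6). Here 25.7% of genes were called and 47.7% did not overlap. The larger error counts the gap between clones as spread: the biological coefficient of variation of *Gdf15* was 0.315 with pooled clones and 0.0769 with each line apart. The 6 PKO libraries were repeated cultures of both clones but entered as separate replicates. The adjusted p of the pooled test therefore does not measure the spread between knockout clones.

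The altered lines also differed from each other in *Gdf15*. The clone PKO-1 was below PKO-6 by a log2 fold change of -1.13 (95% interval -1.34 to -0.93, edgeR, adjusted p = 2.55e-07), in a comparison where 29.1% of genes were called and 66.5% did not overlap. PKO-1 was below rho0 by -1.83 (-2.04 to -1.62, edgeR, adjusted p = 2.30e-09), where 32.7% were called and 69.5% did not overlap. PKO-6 was below rho0 by -0.70 (-0.89 to -0.50, edgeR, adjusted p = 2.79e-05), where 21.5% were called and 56.7% did not overlap. Neighbors in the order of *Gdf15* levels therefore differed beyond their spread, but the call of PKO-6 against rho0 was lost, at -0.42, when the median change of each chromosome was subtracted. The clones, which carry the same deletion, stood 2.19-fold apart.

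*Fgf21* RNA was near the limit of detection in these fibroblasts. Raw counts were 5, 1 and 5 in TM6, 11, 8 and 10 in rho0, 11, 9 and 4 in PKO-1, and 20, 8 and 22 in PKO-6. Normalized, these were 4.32, 0.955 and 4.99 in TM6 and 10.7, 8.86 and 11.2 in rho0. They were 13.1, 9.59 and 4.14 in PKO-1 and 16.4, 8.29 and 21.3 in PKO-6. The lowest library of PKO-1 lay within the TM6 range, while the rho0 and PKO-6 libraries all lay above it. Of all tested genes, 72.8% in rho0 and 71.9% in PKO-6 did not overlap with TM6. The summed counts of 11, 29, 24 and 50 correspond to 0.0598 (0.0299 to 0.107), 0.181 (0.121 to 0.259), 0.154 (0.0989 to 0.230) and 0.281 (0.209 to 0.371) CPM (counts scaled to the library total) in TM6, rho0, PKO-1 and PKO-6, with exact Poisson 95% intervals that cover counting error only. Mean levels were 0.137, 0.400, 0.337 and 0.600 TPM. Per length, *Gdf15* was above *Fgf21* by 15.2-fold in TM6, 84.3-fold in rho0, 27.3-fold in PKO-1 and 33.8-fold in PKO-6.

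Against TM6, *Fgf21* was called in PKO-6. The log2 fold change was 2.13 ± 0.537, or 4.38-fold with a 95% interval of 1.96 to 9.79 (edgeR, adjusted p = 0.00282). In that comparison 41.3% of all tested genes were called. In rho0 the log2 fold change was 1.54 (95% interval 0.28 to 2.81, edgeR, adjusted p = 0.0294), which missed the threshold. The rho0 and TM6 libraries did not overlap, which held for 72.8% of all tested genes. In PKO-1 it was 1.33 (0.02 to 2.63, edgeR, adjusted p = 0.0696) and in the pooled clones 1.80 (0.55 to 3.04, edgeR, adjusted p = 0.0218). No difference among the altered lines passed the threshold. PKO-1 against PKO-6 stood at -0.81 (-1.81 to 0.20, edgeR, adjusted p = 0.152), PKO-1 against rho0 at -0.22 (-1.31 to 0.88, edgeR, adjusted p = 0.721) and PKO-6 against rho0 at 0.59 (-0.39 to 1.56, edgeR, adjusted p = 0.287). These intervals are wide, so the order of the altered lines is not settled at this depth.

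The call of *Fgf21* in PKO-6 rests on few reads. It was lost, with adjusted p of 0.0114, 0.0143 and 0.0135, when PKO-6 replicate 1, PKO-6 replicate 3 or TM6 replicate 2 was left out, where the log2 fold change was 2.05, 1.84 and 1.71. *Fgf21* entered the test because 4 of 12 libraries exceeded 0.180 CPM, and 0 of them were TM6 libraries, so the filter itself needed libraries above the TM6 level.

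**Figure D2:**
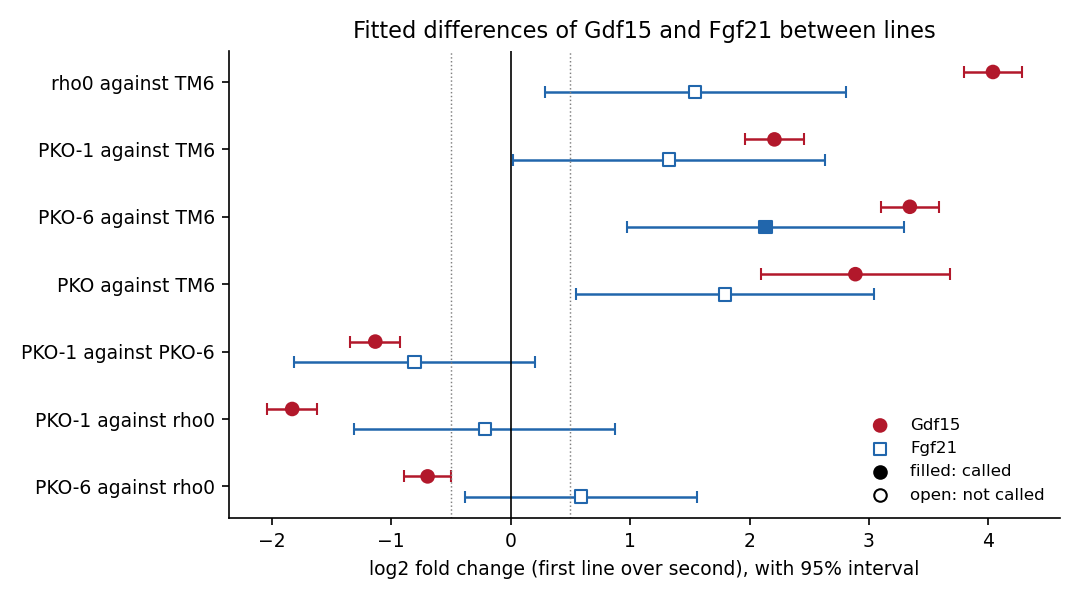
Fitted log2 fold changes of *Gdf15* (red circles) and *Fgf21* (blue squares) in the 7 comparisons, with 95% intervals, where filled symbols are called and dotted lines mark an absolute log2 fold change of 0.5. *Gdf15* was called in each comparison, from 4.04 in rho0 against TM6 to -1.83 in PKO-1 against rho0, while *Fgf21* was called in PKO-6 against TM6 at 2.13.

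Against TM6, the tested receptor genes for these ligands were called lower or not called. Of 7 receptor genes, 5 were tested, and 4 were called lower in rho0, 3 in PKO-1 and 3 in PKO-6, with 0 higher. Of all tested genes, 21.4%, 17.9% and 19.4% were called lower and 20.7%, 16.4% and 21.9% higher. The 5 are too few genes for the 0 higher to be read against these shares. *Gfral*, the GDF15 receptor, had 0 counts in every library, which allows up to 3 counts per library. *Ret*, its coreceptor, had 37 to 45 counts in TM6, 1 to 5 in rho0, 0 to 4 in PKO-1 and 14 to 16 in PKO-6, and was called lower in each line. *Klb*, which encodes beta-Klotho, had 5 to 19 counts in any library, and its log2 fold change from TM6 was 0.03 in rho0, 0.01 in PKO-1 and 0.29 in PKO-6, none called. *Fgfr1*, the most abundant of the FGF receptor genes here and a partner of beta-Klotho, averaged 47.6 TPM in TM6, 28.4 in rho0, 33.5 in PKO-1 and 25.5 in PKO-6, and was called lower in rho0 (-0.72) and PKO-6 (-0.85), while PKO-1 stood at -0.46. *Fgfr2* fell in each line, by -2.03 in rho0, -4.14 in PKO-1 and -1.75 in PKO-6. *Fgfr3* fell by -1.90 in rho0 and -3.00 in PKO-1 and stood at -0.30 in PKO-6, and *Fgfr4* had 0 to 2 counts in TM6 and 0 in the other lines.

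Factors of the integrated stress response were called higher more often in rho0 and PKO-6 than in PKO-1, a difference between the counts that was not tested. These include genes that the response itself induces, while no eIF2-alpha kinase gene of the list below was called higher against TM6. A list of 22 kinases and factors had 21 tested genes, of which 14 were called higher and 1 lower in rho0, 11 higher and 2 lower in PKO-6, and 8 higher and 2 lower in PKO-1. For comparison, of all tested genes 20.7% were called higher and 21.4% lower in rho0, 16.4% and 17.9% in PKO-1, and 21.9% and 19.4% in PKO-6. Their median log2 fold change was 0.79 in rho0, 0.79 in PKO-6 and 0.13 in PKO-1, beside 0.02, 0.01 and 0.00 for all tested genes. Between the clones, 11 of the 21 were called lower in PKO-1 and 0 higher, beside 17.6% and 11.5% of all tested genes. *Atf4* had 15342, 15164 and 15316 normalized counts in TM6 and 33964, 28647 and 30197 in rho0. It had 16674, 16723 and 15202 in PKO-1 and 34437, 35944 and 33327 in PKO-6. The PKO-1 libraries thus stood beside TM6 and overlapped them, at a log2 fold change of 0.08 (edgeR, adjusted p = 0.283), whereas rho0 (1.02) and PKO-6 (1.18) were called higher.

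*Ddit3*, which encodes CHOP, showed the same split. Its normalized counts were 963.0 to 1068 in TM6, 4375 to 5041 in rho0, 1062 to 1184 in PKO-1 and 4284 to 5093 in PKO-6. The log2 fold change was 2.18 in rho0, 2.17 in PKO-6 and 0.13 in PKO-1 (edgeR, adjusted p = 0.179). *Gdf15* was therefore 4.62-fold higher in a clone in which the RNAs of *Atf4* and *Ddit3* were not called, and ATF4 activity, which depends on translation, was not measured here. *Trib3*, a pseudokinase that ATF4 and CHOP induce, had 872.2 to 1006 normalized counts in TM6 and 2509 to 2732 in PKO-1, and rose in each line, by 3.77 in rho0, 1.52 in PKO-1 and 3.46 in PKO-6 on the log2 scale. *Ppp1r15a*, the phosphatase subunit that reverses eIF2-alpha phosphorylation, rose by 2.53, 0.69 and 2.32 in the same order. At the other end, *Eif2ak3*, the endoplasmic reticulum kinase PERK, was called lower in rho0 (-1.04) and PKO-6 (-0.83) with -0.34 in PKO-1. *Xbp1*, a factor of the unfolded protein response, was called lower in PKO-1 at -0.97, and *Eif2ak2*, the kinase PKR, in PKO-6 at -0.57.

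**Figure D3:**
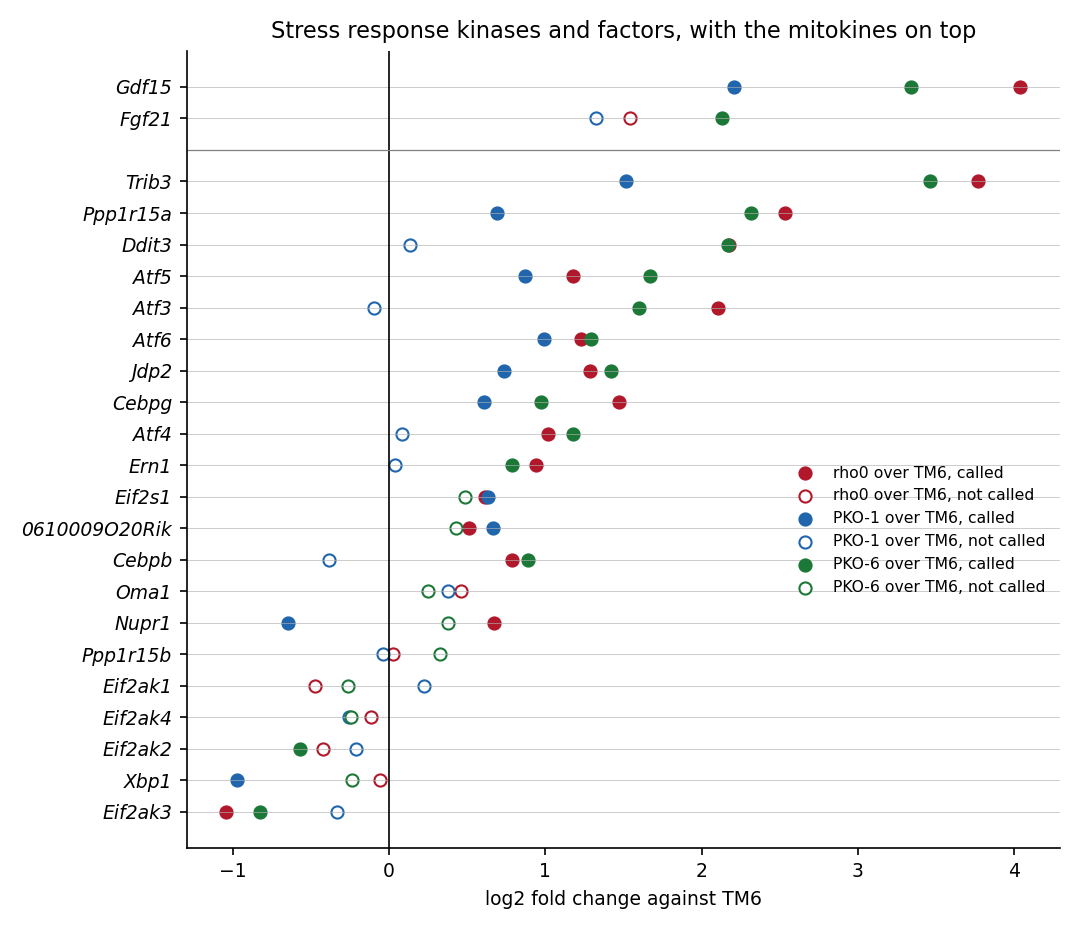
Log2 fold changes against TM6 of the 21 tested kinases and factors of the integrated stress response, ordered by their mean, with *Gdf15* and *Fgf21* at the top. Each point is 1 line (red rho0, blue PKO-1, green PKO-6) and open points were not called. In PKO-1 *Atf4* and *Ddit3* lie at 0.08 and 0.13, while *Trib3* lies at 1.52 and *Gdf15* at 2.21.

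Known targets of ATF4 and its partners were raised with *Gdf15*. Of 32 listed targets 31 were tested, of which 27 were called higher in rho0, 26 in PKO-6 and 16 in PKO-1, with 0 lower, beside 20.7%, 21.9% and 16.4% of all tested genes called higher. Their median log2 fold change was 1.54 in rho0, 1.34 in PKO-6 and 0.53 in PKO-1. Between the clones, 23 of the 31 were called lower in PKO-1 and 1 higher than in PKO-6, beside 17.6% and 11.5% of all tested genes. *Cth*, which makes cysteine from cystathionine, was among the most changed, at 4.15 in rho0, 2.24 in PKO-1 and 3.97 in PKO-6. *Vldlr*, a lipoprotein receptor, stood at 5.01, 3.96 and 4.33 in the same order. The target that was higher in PKO-1 than in PKO-6 was *Slc7a3*, a transporter of cationic amino acids, at 2.74 in rho0, 4.23 in PKO-1 and 2.65 in PKO-6. At the low end were *Slc7a5* (0.38, -0.36 and -0.20), which imports large neutral amino acids, and the aminoacyl tRNA synthetase genes *Mars* (0.37, -0.23 and 0.43) and *Aars* (0.58, -0.05 and 0.14), of which *Aars* in rho0 was called.

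Another known regulator of *Gdf15* is p53. Of 20 tested targets, 7 were higher and 4 lower in rho0, 8 higher and 2 lower in PKO-1, and 12 higher and 3 lower in PKO-6, with medians of 0.21, 0.32 and 1.12. Among all genes the shares higher and lower were 20.7% and 21.4% in rho0, 16.4% and 17.9% in PKO-1, and 21.9% and 19.4% in PKO-6, so the 4 of 20 lower in rho0 are near the background. *Cdkn1a*, the cell cycle inhibitor p21, was called higher in rho0 (2.14), PKO-1 (2.24) and PKO-6 (3.31), as were the proapoptotic *Pmaip1* (2.29, 1.79 and 3.76) and *Trp53inp1* (2.27, 2.44 and 3.97). Against rho0, PKO-6 had 13 of the 20 targets called higher and 0 lower, beside 13.3% and 8.16% of all tested genes. The part of p53 in the *Gdf15* levels was not tested. The death receptor gene *Fas* was called lower in each line, at -1.87, -1.59 and -0.62. *Trp53* RNA itself was not called, at 0.28, -0.13 and 0.03. The SV40 large T antigen that immortalized all 4 lines binds and inactivates p53, but p53 activity in these lines was not measured here.

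Of 15 other tested regulators of the mitokines, 3 were higher and 4 lower in rho0, 3 and 3 in PKO-1, and 3 and 5 in PKO-6, with medians of 0.05, -0.01 and 0.03. In rho0 and PKO-1 these counts are near the shares of all genes given above (20.7% higher and 21.4% lower in rho0, 16.4% and 17.9% in PKO-1). *Ppara*, the fasting regulator of *Fgf21* in liver, had means of 5.80, 25.02, 9.38 and 64.2 normalized counts in TM6, rho0, PKO-1 and PKO-6 and was called higher in rho0 (2.06) and PKO-6 (3.41). *Ppargc1a*, a coactivator of mitochondrial genes, was called higher in PKO-1 (1.27) and PKO-6 (3.04) with -0.71 in rho0, and the factor *Klf4* was called higher in rho0 (1.66), PKO-1 (1.52) and PKO-6 (1.62). *Tfeb* and *Tfe3*, the lysosomal stress factors, were called lower in each line, at -2.58, -1.49 and -1.74 for *Tfeb* and -0.90, -0.98 and -0.99 for *Tfe3*, and so was the nuclear receptor *Rxra* (-1.11, -0.79 and -0.86). *Egr1*, an immediate early factor, was called lower in rho0 (-1.85) and stood at 0.55 in PKO-1 and 0.70 in PKO-6.

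**Figure D4:**
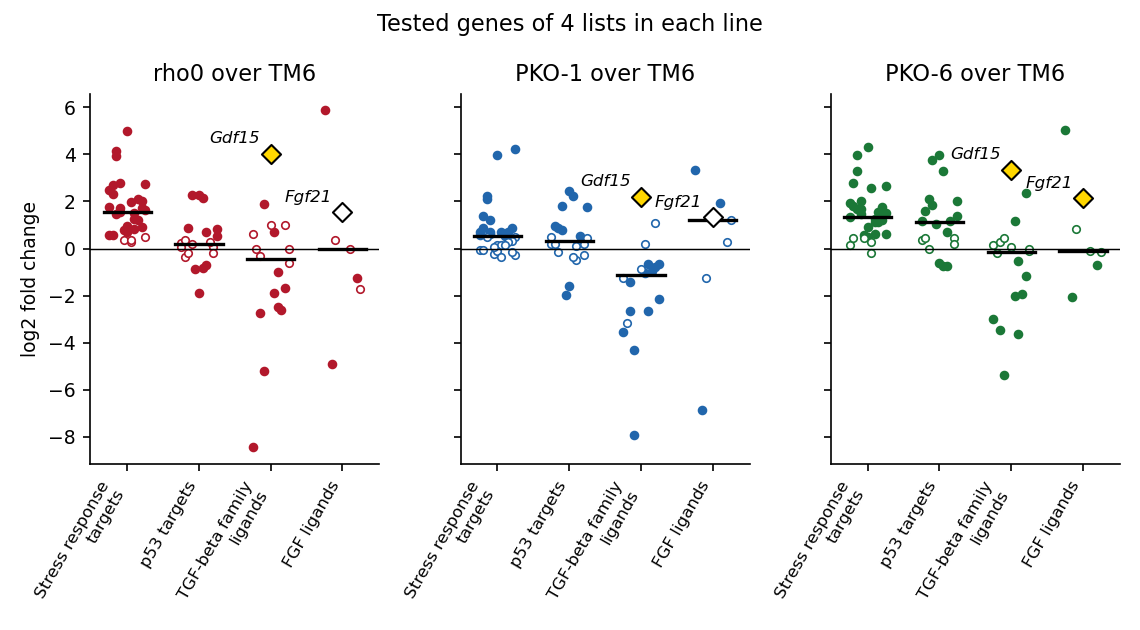
Log2 fold changes against TM6 of the tested genes of 4 lists in rho0, PKO-1 and PKO-6. Points are genes, open points were not called, black bars are list medians and diamonds are *Gdf15* and *Fgf21*. *Gdf15*, at 4.04, 2.21 and 3.34, lies above the other ligands of its family in PKO-1 and PKO-6 and in rho0, where the median of the family is -0.47. Fitted values of genes at 0 in a line depend on the prior count.

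Within its own family, more ligands were called lower than higher, while *Gdf15* rose. Of 34 TGF-beta family ligands 18 were tested, and the counts and medians here include *Gdf15* itself. Called were 3 higher and 8 lower in rho0, 1 higher and 12 lower in PKO-1, and 3 higher and 8 lower in PKO-6. Of all tested genes, 20.7%, 16.4% and 21.9% were higher and 21.4%, 17.9% and 19.4% lower. The 3 of 18 higher in rho0 and in PKO-6 are thus near the background. The medians were -0.47, -1.14 and -0.14, and were the same with genes at 0 in a line set to 3 counts over that line. *Gdf15* was the ligand called higher in PKO-1. By TPM it ranked 9 of 34 in TM6, where *Bmp1* led with 46.4 TPM, 6 in PKO-1, 4 in PKO-6 and 1 in rho0, ahead of *Inhba* with 26.5 TPM. *Tgfb1* was called higher in rho0 (0.70) and PKO-6 (1.15) with 0.21 in PKO-1, and *Bmp8a* in PKO-6 (2.38). *Tgfb2* fell in each line, by -2.75, -2.68 and -3.45. *Bmp2* averaged 30.8 normalized counts in TM6 and 0.742, 0 and 0.669 in rho0, PKO-1 and PKO-6, and *Gdf5* averaged 43.3 in TM6, 0 in rho0, 3.52 in PKO-1 and 5.54 in PKO-6.

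FGF ligands were sparse. Of 22 genes 7 were tested, and *Fgf21* ranked 7 by TPM in TM6 and 4 in each other line, far below *Fgf7* (66.3, 27.4, 77.3 and 39.8 TPM in TM6, rho0, PKO-1 and PKO-6) and *Fgf10* (11.6, 11.2, 41.9 and 10.3 TPM), 2 growth factors that mesenchyme secretes for epithelium. *Fgf7* was called lower in rho0 (-1.26) and PKO-6 (-0.69), and *Fgf10* higher in PKO-1 (1.92). *Fgf1* had 1 to 2 counts per library in TM6, 24 to 113 in rho0, 4 to 17 in PKO-1 and 39 to 58 in PKO-6 and was called higher in each line. *Fgf5* averaged 56.9 normalized counts in TM6, 1.86 in rho0, 0.355 in PKO-1 and 13.7 in PKO-6, and *Fgf2*, at -1.71, 1.19 and -0.15, was not called. Counts over the 7, which include *Fgf21*, were 1 higher and 2 lower in rho0, 2 higher and 1 lower in PKO-1, and 2 and 2 in PKO-6. The medians were -0.03, 1.19 and -0.12, and these are too few genes to read against the shares of all genes.

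Among 19 tested genes for other secreted stress factors, of which *Stc2* and *Vegfa* are also on the ATF4 target list, 7 were higher and 5 lower in rho0, 9 and 6 in PKO-1, and 12 and 5 in PKO-6, with medians of -0.04, 0.58 and 1.36, where 20.7%, 16.4% and 21.9% of all tested genes were higher and 21.4%, 17.9% and 19.4% lower. *Angptl6*, a circulating angiopoietin-like factor, rose by 5.36, 0.80 and 4.47, and *Adm2*, a peptide hormone that ATF4 induces, by 3.93, 1.46 and 4.51, again least in PKO-1. *Lcn2*, an iron-carrier-binding protein, averaged 0.895, 7.83, 2.52 and 76.4 normalized counts in TM6, rho0, PKO-1 and PKO-6. *Angptl4*, a lipase inhibitor, averaged 37.1 in TM6, 0 in rho0, 1.05 in PKO-1 and 0.891 in PKO-6. *Adm* was called lower at -1.64, -1.08 and -3.34 and *Creld2*, an endoplasmic reticulum stress protein, at -1.53, -0.57 and -0.69.

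Across the 12 libraries the gene most like *Gdf15* was *Stc2*, which encodes the secreted glycoprotein stanniocalcin-2 (Pearson r = 0.998 of log2 CPM, a description over libraries that share 4 lines). Its normalized counts were 79.6 ± 4.72 in TM6, 1231 ± 15.2 in rho0, 346.3 ± 5.47 in PKO-1 and 781.7 ± 32.7 in PKO-6 (mean ± SD, n = 3), close to those of *Gdf15* line by line. *Akna* (0.998), *Pde5a* (0.996), *Itpr2* (0.994) and *Atp9b* (0.994) followed, and 843 tested genes had an r above 0.9. *Trib3* stood at 0.978, *Ddit3* at 0.866 and *Atf4* at 0.844. For *Fgf21* the closest genes were *Gm11974* (0.902), *Btbd3* (0.898), *5430416N02Rik* (0.882), *Malrd1* (0.879) and *Psg17* (0.872), and its r with *Gdf15* was 0.755. Counting noise in *Fgf21* limits how high such values can be.

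Of the 10 nearest tested neighbors of *Gdf15*, 5 on each side, 2 were called in rho0, 1 in PKO-1 and 4 in PKO-6, and 0 of them were called higher. Among all tested genes, 42.1%, 34.3% and 41.3% were called and 20.7%, 16.4% and 21.9% were called higher. The count called in PKO-6 is thus near the background. The nearest, *Pgpep1* at 14800 bases, stood at -0.12, 0.02 and 0.08, and *Isyna1*, inositol-3-phosphate synthase, was called lower at -2.97, -5.72 and -3.73. Chromosome 8 as a whole was low in PKO-6: its 738 other tested genes had a median log2 fold change of -0.43 there, beside -0.18 in rho0 and -0.11 in PKO-1. With the chromosome median subtracted, *Gdf15* stood at 4.22 in rho0, 2.32 in PKO-1 and 3.77 in PKO-6, and the difference of PKO-6 from rho0 shrank to -0.42, inside the fold threshold. A change of chromosome number was not tested.

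Of the 10 nearest tested neighbors of *Fgf21*, 6 were called in rho0 (5 higher), 4 in PKO-1 (2 higher) and 6 in PKO-6 (4 higher). Of all tested genes, 42.1%, 34.3% and 41.3% were called and 20.7%, 16.4% and 21.9% were called higher, so the count in PKO-1 is near the background. Some of these neighbors overlap each other, and a difference from these shares was not tested. *Ppp1r15a*, described above, lies 87621 bases away. *Fut1*, a fucosyltransferase gene and the nearest at 2115 bases, stood at 2.92 in rho0, -0.03 in PKO-1 and 3.38 in PKO-6, and *Car11*, a carbonic anhydrase-related gene, at 2.11, 0.37 and 1.72. The chromosome 7 medians were 0.13, 0.12 and -0.03.

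**Figure D5:**
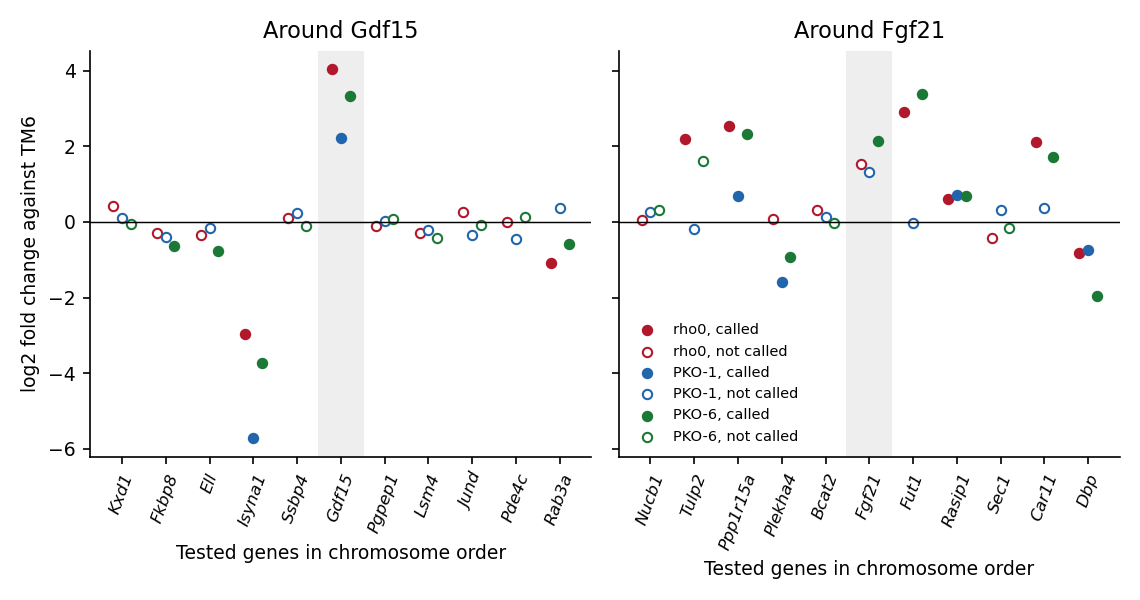
Log2 fold changes against TM6 of *Gdf15* and *Fgf21* (shaded) and their 5 nearest tested genes on each side, in chromosome order and not to distance. Colors are lines (red rho0, blue PKO-1, green PKO-6) and open points were not called. 0 of the neighbors of *Gdf15* were called higher, beside 20.7% of all tested genes in rho0, 16.4% in PKO-1 and 21.9% in PKO-6. *Fut1* (2.92 and 3.38) and *Ppp1r15a* (2.53 and 2.32) beside *Fgf21* were called higher in rho0 and PKO-6.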

How the data were processed

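RNA-seq data of 12 libraries, 3 each of TM6, rho0, PKO-1 and PKO-6 MEFs, were re-analyzed. The authors sequenced paired ends of stranded, rRNA-depleted libraries, merged technical duplicates, and ran RSEM 1.2.25 with bowtie2 on RefSeq transcripts of mm10 (GRCm38). The deposited gene table holds expected counts (estimated counts, not normalized), which were rounded, and the deposited files per library also hold the authors' TPM per transcript, summed here per gene. Of 24453 genes, 14026 passed filterByExpr (minimum count 10). Libraries were TMM scaled and tested with edgeR 4.0.16 in R 4.3.3 by the quasi-likelihood test, with 4 lines apart for line contrasts and both clones pooled for PKO against TM6. Benjamini-Hochberg adjustment ran over all tested genes. The standard error is the log2 fold change divided by the square root of F. At totals of 47164860 to 67991378 counts, 3 counts is the limit of a count of 0.

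Alternatives were DESeq2 1.42.0 size factors or Wald test, no filter, a replicate block, removal of *Rn45s* or chromosome medians, transcript sums, log2 TPM with a pseudocount of 0.1, the compared groups alone, other groupings, an absolute log2 fold change above 1, and each library left out in turn. The members and the lists, compiled by hand, were chosen with earlier results of these data known. From each list, the 3 genes with the highest and the 3 with the lowest mean log2 fold change over the 3 altered lines could be named, with every receptor, *Atf4*, *Ddit3*, *Trp53*, *Egr1* and *Ppara*, the 5 genes most correlated with each mitokine and the 5 nearest on each side.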

Additional observations from a re-analysis of the deposited data

Results flagged for a closer look

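The changes of *Gdf15* against TM6 differed between lines by a direct test of each pair. PKO-1 stood below PKO-6 by -1.13 on the log2 scale, PKO-1 below rho0 by -1.83 and PKO-6 below rho0 by -0.70, each with 3 of 3 libraries of the lower line under every library of the higher line, where 66.5%, 69.5% and 56.7% of all tested genes did not overlap either. With chromosome medians removed, PKO-6 against rho0 stood at -0.42 and was no longer called. Each altered line is 1 clone or colony, so in comparisons with rho0 or TM6 a difference between clones and an effect of the genotype cannot be told apart. The clones PKO-1 and PKO-6 carry the same *Pnpt1* deletion, so the difference between them is one between clones.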

How the results depend on the processing

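*Gdf15* kept its direction and its side of the threshold under each alternative in 6 of 7 comparisons. Leaving out single libraries gave log2 fold changes of 3.91 to 4.09 in rho0, 2.09 to 2.27 in PKO-1 and 3.22 to 3.40 in PKO-6 against TM6. The exception was PKO-6 against rho0, which stood at -0.42 with chromosome medians removed. Its main value of -0.70 also lies inside the stricter fold limit of 1. Log2 TPM gave no adjusted p, and removal of chromosome medians kept that of the main fit. For these alternatives only the fold threshold was checked. *Fgf21* depended on single libraries: PKO-6 against TM6 ranged from 1.71 to 2.45 with libraries left out and lost its call in 3 of 12 cases, while PKO against TM6 ranged from 1.37 to 2.13 and gained a call without PKO-1 replicate 3 (1.97) and in the fit of 4 lines with the mean of both clones (1.73). PKO-1 against rho0, not called, ranged from -0.57 to 0.14 and turned positive without PKO-1 replicate 3. *Fgf21* did not pass the low-count filter when TM6 was fitted alone with rho0, PKO-1 or PKO-6, or PKO-1 with rho0, so those fits give no value. With an absolute log2 fold change above 1, called genes numbered 2944 in rho0, 2274 in PKO-1, 3038 in PKO-6 and 1788 in PKO against TM6, 1950 in PKO-1 against PKO-6, 2202 in PKO-1 against rho0 and 1510 in PKO-6 against rho0.

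Replicate numbers did not clearly pair the samples. Deviations of same-numbered libraries of different lines correlated from -0.385 to 0.250, above 0.1 in 10 of 18 pairs. This range lies inside that of 36 pairs with other numbers, -0.415 to 0.490, for which pairs above 0.1 were not counted. With the replicate block, the log2 fold change of *Gdf15* in rho0 against TM6 was 4.04 and that of *Fgf21* in PKO-6 against TM6 was 2.13, called genes in rho0 against TM6 numbered 5849 beside 5902 without it, and no call of *Gdf15* or *Fgf21* changed. Depth limits *Fgf21*, with 1 to 22 counts per library.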
